A study of Mus musculus with 2 samples.

Results

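Of the 44058 regions that were open in both libraries of mouse T helper 2 (Th2) cells, 9998 lay in later introns, which are introns 2 and onward of protein-coding genes. A region was a stretch joined from peaks that overlapped by at least 1 bp, with a peak from each library. It counted as a later-intron region when its centre fell in intron 2 or later of a gene's longest transcript, here the one with most exonic bases. The centre also had to be in no exon or first intron of another such transcript, and over 1 kb from every protein-coding transcription start site. Later-intron regions made up 22.7% (95% Wilson interval 22.3 to 23.1) of all regions found in both libraries. First introns held 4674 regions, exons 1368, promoters (within 1 kb of a start) 12103 and the space between genes 15915.

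The labels name the assay as ATAC-seq, which cuts and tags accessible DNA with a transposase. There was 1 group, primary Th2 cells of strain C57BL/6NJ, with 2 biological replicates from separate biosamples that share a donor record. Sex was not collected, age is given as unknown, and the labels name neither a control nor a treatment. The labels do not tie the replicates to different animals, so differences between them measure only these samples and can be technical. With 2 libraries of 1 group an exact paired test cannot go below p = 0.5, so no difference was called and values of both libraries are given side by side.

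Introns are spliced out of the transcript, but their DNA can carry enhancers, silencers and the binding sites of factors that organise chromatin loops. First introns are known to be rich in regulatory DNA next to the promoter, whereas elements in later introns can lie far from the start of their host gene and can act on a neighbour. In Th2 cells the best known example is the locus control region in the 3′ part of Rad50, a DNA repair gene that lies between Il13 and Il5. CD4 T cells become Th2 cells under Il4, Stat6 and Gata3, and secrete Il4, Il5 and Il13.

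The 2 lists held 51458 peaks (replicate 1) and 60784 peaks (replicate 2) on 21 chromosomes, and the read depth behind them is unknown. Of all protein-coding genes 57.3% had an open promoter. Promoters of the markers of T cells were open in both libraries for 5 of 5 genes (Cd3e, Cd4, Lck, Zap70, Bcl11b). Among Th2 markers the promoters of 6 of 8 were open (Gata3, Il4, Il5, Il13, Ccr4, Ccr8), and those of Il1rl1 and Ptgdr2 were not. Promoters were open for 1 of 5 B cell markers (Ebf1), 0 of 5 myeloid markers, 1 of 4 mast cell and basophil markers (Kit) and 0 of 4 markers of CD8 T and natural killer cells. The longer lists used below were counted over genes with later-intron sequence. In them promoters were open for 17 of 21 Th2 genes, 3 of 13 B cell markers and 2 of 10 myeloid markers. Promoters were also open for 3 of 10 mast cell and basophil markers and 3 of 10 markers of CD8 T and natural killer cells.

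The sequences below are 200 bases at the summits of later-intron regions, read 5′ to 3′ on the plus strand of GRCm38 (mm10). Rad50, Kif3a, Gata3, Il1rl1 and Pparg are shown as genes of the Th2 programme or hosts in its cytokine locus, Bach2 and Lpp as genes with most such regions, and Cntnap5b as the host of the strongest. Capitals mark matches, on either strand, to the letters TGANTCA bound by AP-1, AGATAA bound by GATA factors and TGTGGTT bound by RUNX factors. CNGGAAGT, bound by ETS factors, was searched as well.
Rad50, intron 21 (chr11:53656836-53657035): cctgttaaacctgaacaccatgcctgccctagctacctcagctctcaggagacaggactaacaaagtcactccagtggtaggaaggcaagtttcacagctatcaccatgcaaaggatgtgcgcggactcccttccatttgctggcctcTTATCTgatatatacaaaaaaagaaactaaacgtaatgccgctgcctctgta
Kif3a, intron 9 (chr11:53590445-53590644): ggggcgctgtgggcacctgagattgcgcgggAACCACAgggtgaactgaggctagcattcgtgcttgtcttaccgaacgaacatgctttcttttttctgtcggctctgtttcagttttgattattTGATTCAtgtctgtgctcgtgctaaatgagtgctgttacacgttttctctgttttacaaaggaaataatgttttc
Gata3, intron 4 (chr2:9867218-9867417): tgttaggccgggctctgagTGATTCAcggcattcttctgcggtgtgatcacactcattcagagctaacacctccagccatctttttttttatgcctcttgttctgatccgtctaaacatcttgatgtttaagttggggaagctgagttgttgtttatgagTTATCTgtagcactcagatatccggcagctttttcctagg
Il1rl1, intron 6 (chr1:40444778-40444977): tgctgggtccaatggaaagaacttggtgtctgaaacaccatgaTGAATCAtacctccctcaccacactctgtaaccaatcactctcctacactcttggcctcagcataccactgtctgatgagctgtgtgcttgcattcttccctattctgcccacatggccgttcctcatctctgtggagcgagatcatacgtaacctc
Pparg, intron 7 (chr6:115480344-115480543): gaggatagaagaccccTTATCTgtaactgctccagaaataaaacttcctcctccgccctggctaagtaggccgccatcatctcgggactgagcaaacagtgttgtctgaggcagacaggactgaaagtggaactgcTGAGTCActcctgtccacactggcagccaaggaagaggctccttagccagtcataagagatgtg
Bach2, intron 3 (chr4:32482952-32483151): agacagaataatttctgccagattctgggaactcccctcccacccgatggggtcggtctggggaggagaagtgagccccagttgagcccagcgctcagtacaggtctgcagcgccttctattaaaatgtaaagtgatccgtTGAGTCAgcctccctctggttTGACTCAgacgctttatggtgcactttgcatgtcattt
Lpp, intron 3 (chr16:24527087-24527286): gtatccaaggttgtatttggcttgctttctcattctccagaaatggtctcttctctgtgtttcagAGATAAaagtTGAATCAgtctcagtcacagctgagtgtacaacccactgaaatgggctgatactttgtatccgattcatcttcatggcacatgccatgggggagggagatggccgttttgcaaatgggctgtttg
Cntnap5b, intron 10 (chr1:100180103-100180302): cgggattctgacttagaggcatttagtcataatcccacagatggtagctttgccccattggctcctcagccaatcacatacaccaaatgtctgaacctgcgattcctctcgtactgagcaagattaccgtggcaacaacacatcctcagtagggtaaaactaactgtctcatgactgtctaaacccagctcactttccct

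Of these 8 windows, those of Kif3a, Gata3, Il1rl1, Pparg, Bach2 and Lpp held the AP-1 letters. Bach2 held them at bases 142 and 163, counted from the first base shown, and in Lpp a GATA match at base 66 stood just before an AP-1 match at base 76. The Rad50 window held a GATA match at base 149 and no AP-1 match. The Cntnap5b window held no match to AP-1, GATA, RUNX or ETS letters. Windows of other Th2 genes and genes with many regions were searched as well and are not shown. Of these, Il6ra and Atxn1 held AP-1 letters and Thada held GATA letters only. Il10, Stat6, Gfi1 and Clec16a held no match. The windows shown are therefore not a sample of all later-intron windows, of which 29.7% held the AP-1 letters. A match is a run of letters, and no binding was measured.

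Later introns were less densely open than first introns and more densely open than the space between genes. The rule left 643 Mb of later-intron sequence, 24.3% of the bases of all classes, and regions found in both libraries lay there at 15.6 per Mb. Per Mb, first introns held 21.9, exons 22.8, promoters 225 and the space between genes 9.49, against 16.6 over all classes. The density of later introns was 0.711 of that of first introns. The ratio was 0.728 from the peaks of replicate 1 (19.2 against 26.4 per Mb) and 0.726 from those of replicate 2 (24.3 against 33.4). Against the space between genes the ratio was 1.64, with 1.69 and 1.77 in the single libraries. Replicate 2 was the higher library in every class, and the order of the classes was the same in both libraries, as the plot of density by class shows.

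**Figure D1:**
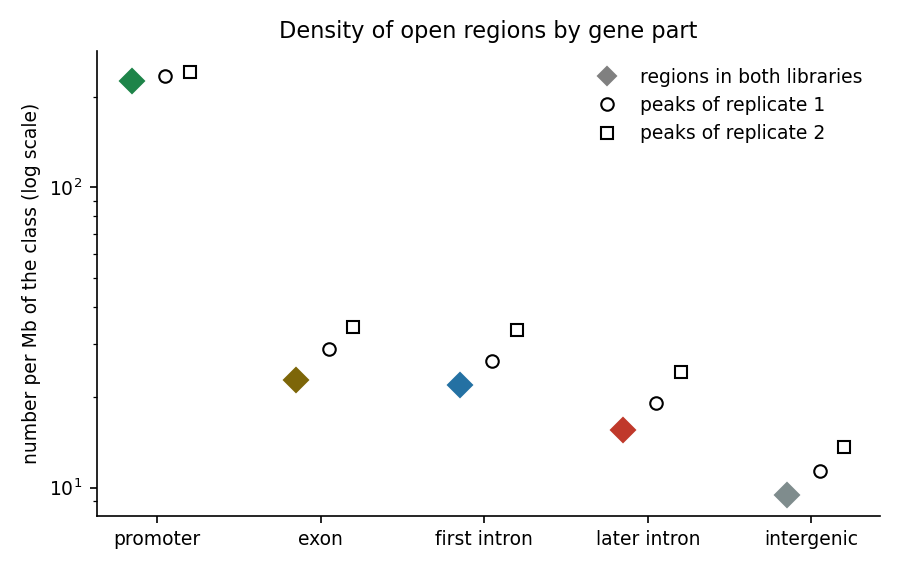
Number of open regions per Mb of each gene part on a log axis, with diamonds for regions found in both libraries and open symbols for the peaks of replicates 1 and 2. Later introns (15.6 per Mb) sit between first introns (21.9) and the space between genes (9.49) in the joined regions and in each library.

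Within later introns, density was highest in intron 2 and fell in introns over 50 kb. It was 18.6 per Mb in intron 2, 15.6 in intron 3, 14.8 in introns 4 to 5, 15.3 in introns 6 to 10 and 13.8 beyond intron 10. Both libraries had their highest density in intron 2 (22.2 and 28 peaks per Mb) and their lowest beyond intron 10 (17.7 and 22.0). Introns of 2 to 10 kb held 18.8 regions per Mb, those of 50 to 100 kb held 13.8 and those over 100 kb held 5.49. Sequence within 0.2 kb of an exon held 19.1 per Mb, and sequence over 20 kb from any exon held 8.06. These bins overlap in what they measure, since long introns are also those with sequence far from exons.

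Later-intron density also fell with distance from the start of the host gene. It was 17.4 per Mb up to 5 kb from the start, 21.6 from 5 to 20 kb, 20.6 from 20 to 50 kb, 18.6 from 50 to 100 kb, 13.8 from 100 to 200 kb and 6.66 beyond 200 kb. First introns held 23.5, 28.5 and 23.4 per Mb over the same bins up to 50 kb. From 50 to 100 kb and from 100 to 200 kb they held 16.5 and 8.88, below later introns at the same distance, in both libraries as well (19.2 and 24.0 peaks per Mb from 50 to 100 kb against 22.9 and 29.2). Beyond 200 kb first introns held 9.38. The median later-intron region lay 47.1 kb from the start of its host gene (25th to 75th percentile 19.5 to 104 kb).

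Later introns were more densely open in genes whose promoter was open. A promoter was called open when a region of both libraries was centred within 1 kb of a protein-coding start of that gene. Later introns of genes with an open promoter held 21.7 regions per Mb, against 5.94 in genes without one, a ratio of 3.64 (3.52 and 3.71 from the peaks of the single libraries, with promoters still called open from both). For first introns the ratio was 5.37. The gap in later introns was small next to the start, at 18.7 against 15.4 per Mb up to 5 kb, and wide beyond 200 kb, at 13.1 against 1.88. Among genes with an open promoter, first introns were the denser class from 50 to 100 kb (28.2 against 23.5 per Mb), and among genes without one later introns were (6.93 against 2.90). The order of the classes at that distance thus depended on which genes were counted. Region strength did not move in the same way: median fold enrichment was 5.46 and 6.32 (replicates 1 and 2) in genes with an open promoter and 5.54 and 6.29 in genes without.

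**Figure D2:**
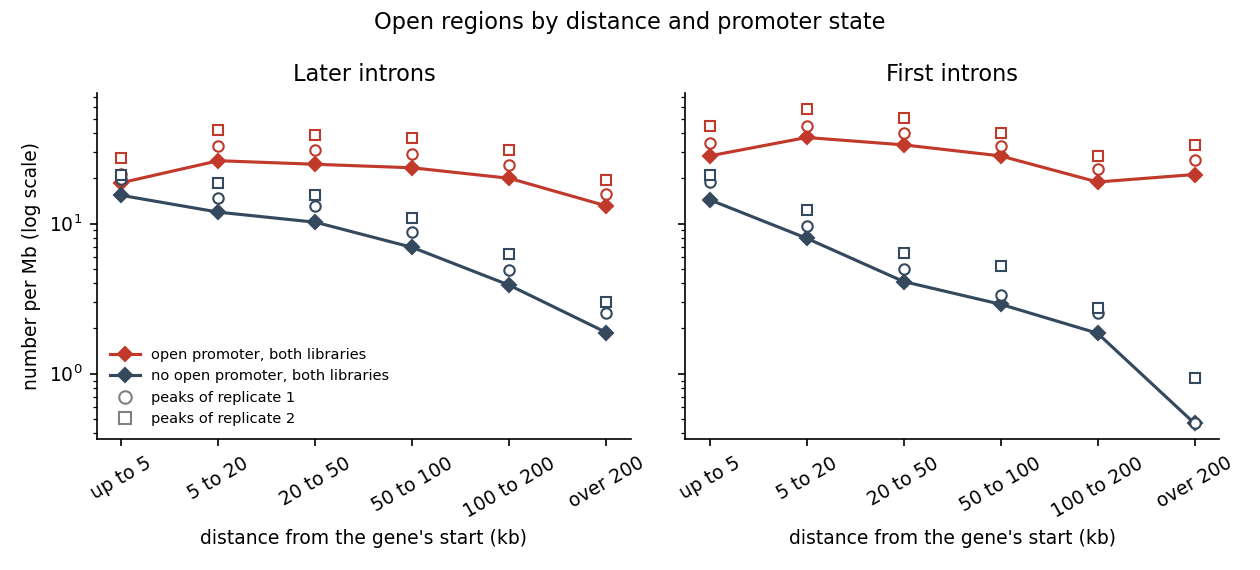
Number of open regions per Mb (log axis) against distance from the start of the host gene in kb, for later introns (left) and first introns (right), with red for genes with an open promoter, dark blue for genes without, lines for regions in both libraries and open symbols for each library's peaks. In later introns the lines start at 18.7 and 15.4 per Mb and end at 13.1 and 1.88.

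Most genes had no later-intron region, and a small set had many. Of 17554 genes with later-intron sequence that met the rule, 4577 (26.1%) held at least 1 region and 2588 held exactly 1. The 428 genes with 5 or more held 34.1% of the regions in 13.0% of the sequence, and the 86 genes with 10 or more held 12.3% in 3.89%. An open promoter was found for 3703 (80.9%) of the 4577 genes with a later-intron region, against 11224 of the 17554 genes with sequence that met the rule. The median distance from a later-intron region to the nearest other one was 13.4 kb, and no such distance is given for other classes. A first-intron region was also found in 1230 of the 4577 genes. The other 3347 had none, which counts any gene without first-intron sequence that met the rule. Among all genes with such sequence, a first-intron region was held by 2116 of 9333 with an open promoter (22.7%) and 348 of 5742 without (6.06%).

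Atxn1 and Bach2 held most later-intron regions, 30 each. In Atxn1, which encodes the chromatin-associated protein ataxin 1 (chr13:45549755-45964976), 20 of the 30 stood in a 98.6 kb run in which neighbours were under 12.5 kb apart. Bach2 (chr4:32238804-32586104), a repressor that competes with AP-1 factors in lymphocytes, had 14 of its 30 in intron 2 and another 10 regions in its first intron. Its strongest later-intron region by the mean rank of both libraries, in intron 3, had a fold enrichment of 12.7 in replicate 1 and 12.0 in replicate 2, while in replicate 2 a region in intron 4 was higher (10.4 and 13.7). Over its 30 regions the fold ran from 2.52 to 12.7 with a median of 5.14 in replicate 1, and from 2.31 to 13.7 with a median of 6.36 in replicate 2. The spread among regions of 1 gene was thus wider than the difference between libraries.

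Lpp, a LIM protein of cell adhesions, followed with 29 regions, and Thada, named for thyroid adenomas, with 26. Clec16a, which acts in mitophagy, and Fhit, a hydrolase gene at a common fragile site, had 25 each. The 25 of Fhit were spread over 1571 kb of later intron (1.59 per 100 kb), whereas those of Clec16a lay in 177 kb (14.1 per 100 kb), 17 of them in a single run of 86.4 kb. Inpp4b, a phosphoinositide phosphatase, had 24, 14 of them in a run of 73.4 kb. Akap13, a kinase anchor, Foxp1, a forkhead factor that keeps T cells quiescent, and Prkca, protein kinase C alpha, had 21 each, and 13 of those of Prkca lay in its intron 2.

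The genes next in number held 17 to 20 regions. They were Babam2 (a subunit of a BRCA1 complex), Mllt3 (a reader of acetylated histones), Itpr1 (a calcium channel of the endoplasmic reticulum), Snx29 (a sorting nexin), Bbx (an HMG box protein), Celf2 and Msi2 (RNA-binding proteins), Nfia (a transcription factor), Rad51b (DNA recombination), Pde11a (a phosphodiesterase) and 2010111I01Rik. For 20 of the 21 genes with most regions the promoter was open. The exception was 2010111I01Rik, with 17 regions, no shared region over an annotated start, and single folds of up to 17 and 16. Long genes have more room, and across genes the number of regions and the length of later intron had a Spearman correlation of 0.468, a description over genes that share both libraries.

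**Figure D3:**
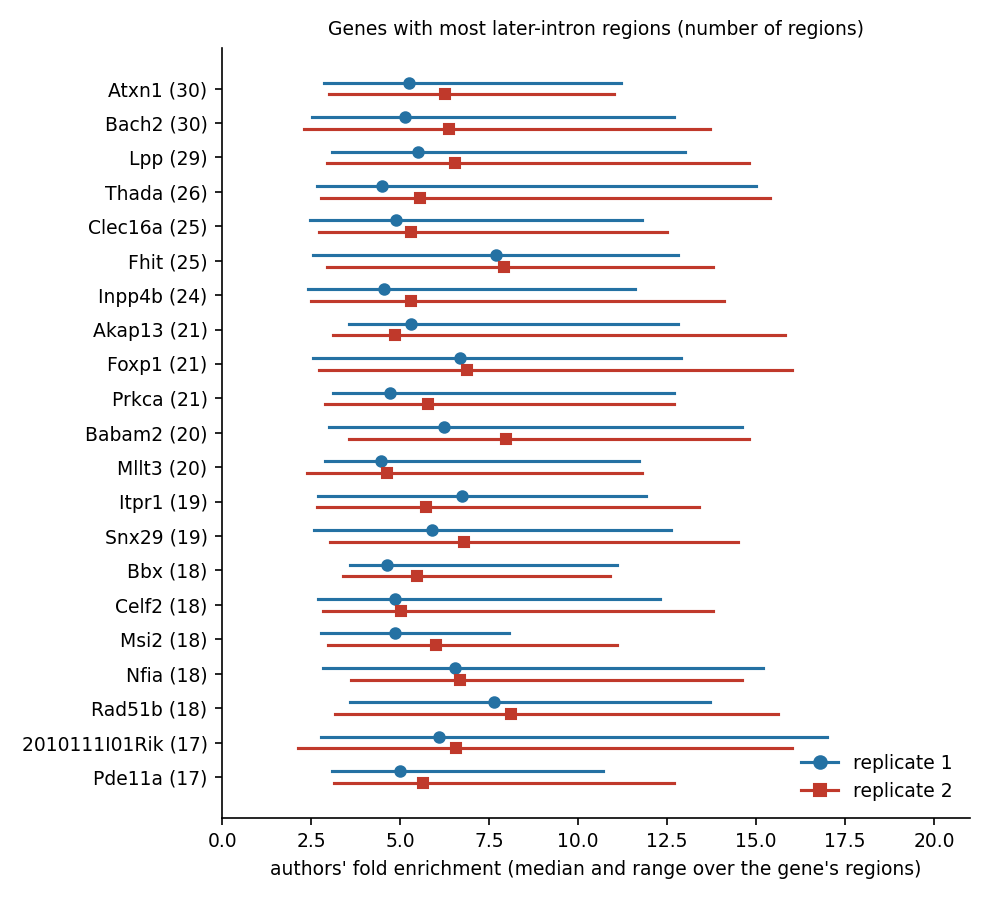
Authors' fold enrichment of the later-intron regions of the 21 genes with most of them, with the number of regions in brackets, points for the median, lines for the range, blue circles for replicate 1 and red squares for replicate 2. In Bach2 the medians are 5.14 and 6.36, and each library's line runs past 12.

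Per length, Ets1, Sla, Hvcn1 and Ptpn2 stood highest among genes with at least 5 regions and 20 kb. Ets1, a founding ETS factor of T cells, held 8 regions in 24.5 kb, or 32.6 per 100 kb, and 7 more regions in its first intron. All 8 were of low to moderate strength, with folds of 2.08 to 5.67 in replicate 1 and 2.21 to 5.69 in replicate 2. Sla, an adaptor that dampens T cell receptor signalling, followed at 24.7 per 100 kb, the proton channel gene Hvcn1 at 23.7, and Ptpn2, a phosphatase of JAK and STAT proteins, at 23.6. The semaphorin gene Sema4b (21.2), the lipid phosphatase gene Mtmr3 (9 regions in 45.0 kb), Rgs10 (19.9), which limits G protein signalling, the galactosidase gene Glb1 (19.9), the secreted factor gene Fam3c (17.6) and the phosphodiesterase gene Pde7a (16 per 100 kb) completed the list. All 10 had an open promoter.

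Some of the longest genes held no later-intron region at all. Of 573 genes with over 200 kb of eligible later intron, 271 held none. This was a smaller share than over all genes with eligible sequence, of which only 26.1% held at least 1. An open promoter was found for 56 of those 271, against 292 of the 573. Dmd, the dystrophin gene, and Macrod2 had open promoters and 0 regions in 2051 and 1973 kb. Lrp1b, Cntnap2 and Csmd1, long genes known for their expression in neurons, had neither an open promoter nor a later-intron region in 1709, 1639 and 1310 kb. The opposite pattern was also seen. F13a1, a coagulation factor gene, Pebp4 and Rapgef4 each held 9 later-intron regions with no shared region at an annotated start.

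In the Th2 list, 9 of 21 genes with later-intron sequence held 23 regions, a density of 71.6 per Mb against 15.6 over all genes, of which 26.1% held a region. The list has 25 genes, of which 4 have no sequence that meets the rule, and it was written with earlier results of these data known. Of its 25 genes Maf, Nfil3, Ccr4 and Ccr8 are those with no such sequence. The other 12 held no later-intron region: the cytokine genes Il4, Il5, Il9, Il13, Il24 and Areg, the receptor genes Il4ra, Il17rb, Crlf2 and Ptgdr2, and Bhlhe41 and Rnf128. Their introns are short, with 28.8 kb of later intron in Rnf128 and at most 9.88 kb (Il4ra) in the rest. Rad50 held 4 regions, in its introns 21, 22 and 24, at 44.1 to 56.1 kb from its own start. For all 4 the nearest protein-coding start was that of Il13, the cytokine of mucus and airway responses, 16.5 to 28.5 kb away. Their folds ran from 6.55 to 8.86 in replicate 1 and from 6.65 to 9.27 in replicate 2, and each was above the later-intron median of its library (5.47 and 6.32). The region whose summit is printed above (chr11:53656563-53657332) had 8.86 and 8.11.

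Kif3a, a kinesin gene on the other side of Il4, held 2 regions. The region in intron 9 was 1561 bp wide with folds of 6.14 and 6.72, and the one in intron 10 was 1090 bp wide with 5.00 and 4.93 and had Il4 as the nearest start, at 24.5 kb. In Gata3, the factor that specifies Th2 cells, 3 regions were of modest strength. Their folds were 4.27 and 5.57 in intron 4, 2.63 and 3.67 in intron 3 and 2.25 and 2.41 in intron 2, all below the later-intron medians.

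Il1rl1 encodes the receptor of the alarmin Il33. It held 2 regions, and no shared region was centred within 1 kb of its starts or overlapped one. The region in intron 6 had a fold of 4.48 in replicate 1 and 8.64 in replicate 2, a larger ratio than the 1.76 at the 95th percentile of later-intron regions, whereas that in intron 8 had 5.00 and 5.58. Pparg, a fatty acid sensing nuclear receptor that Th2 cells use, held 5 regions. Its region in intron 7 was 1564 bp wide with folds of 10.7 and 10.2, and its region in intron 2 had 4.87 and 9.21. Il6ra, a chain of the Il6 receptor, held 4 regions with folds of 2.65 to 7.56 in replicate 1 and 2.39 to 8.23 in replicate 2. Il10, a cytokine that restrains inflammation, had a single region in intron 3 that was 1875 bp wide, with folds of 7.48 and 6.42, and no open promoter. Stat6, which transmits the Il4 signal, had 1 region with 4.00 and 4.20, and Gfi1, a repressor induced in Th2 cells, had 1 with 2.61 and 2.92.

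Other lists of T cell genes were also denser than the 15.6 per Mb of all genes, and the counts of genes with a region below stand beside 26.1% over all genes. Genes of AP-1, NFAT and NF-kB held 89.5 per Mb (12 of 22 genes with a region), and 72.4 without Bach2, the richest of them. Nfatc2 and Nfkb1 held 9 each. Genes of JAK, STAT and cytokine receptors held 62.0 per Mb (15 of 26 genes). Il12rb2, a chain of the Il12 receptor, had 5 regions, 1 of them with folds of 15 and 17, and Stat4 also had 5, while the 4 of Il2ra stayed between 2.06 and 3.06 in replicate 1 and 2.09 and 2.56 in replicate 2. T cell receptor signalling held 53.3 per Mb (23 of 35 genes), led by Prkca, Cblb with 13 and Ptprc with 11. In Ptprc, which encodes the phosphatase CD45, 10 of the 11 lay in intron 2. T lineage transcription factors held 45.7 per Mb (24 of 33 genes), led by Foxp1, Runx1 with 16 and Lef1 with 12.

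Genes of other helper subsets held 41.4 per Mb (12 of 28 genes, with Nrp1 and Rora at 6), and genes of adhesion and the cytoskeleton 36 per Mb (25 of 30 gene models, Arhgap26 having a second one, with Arhgap15 at 16 regions and Elmo1 at 13). The lists share genes, so part of their regions are the same. Il12rb2, Stat4 and Il2ra counted both for other helper subsets and for JAK, STAT and cytokine receptors. Rora, Ikzf2, Tox2 and Runx3 counted both for other helper subsets and for T lineage transcription factors. Gata3 and Stat6 of the Th2 list also counted for T lineage transcription factors and for JAK, STAT and cytokine receptors, respectively. Housekeeping genes held 59.2 per Mb, but this rested on 6 regions in 3 of 14 genes, 4 of them in Ywhaz, and was 24.4 without that gene. B cell markers held 19.3 per Mb (4 of 13 genes: Ebf1 8, Bank1 6, Pax5 2, Blk 1). Myeloid markers held 12.5 (2 of 10: Mertk 2, Spi1 1). Mast cell and basophil markers held 27.1 per Mb, all of it from 3 regions of Hdc (1 of 10 genes). CD8 T and natural killer cell markers held 47.9 per Mb, more than T lineage transcription factors, all of it from 4 regions of Gzmk (1 of 10 genes). Both Hdc and Gzmk lacked an open promoter, and without them these lists held 0. Long neuronal genes held 0.804 per Mb (6 of 30, led by Dlg2 with 9 and Sox5 with 6). Open promoters were held by 35 of 35 genes of T cell receptor signalling and 5 of 30 of the neuronal list. Over all genes, density was 21.7 per Mb with an open promoter and 5.94 without. These values are not matched for length. The 30 neuronal genes hold 27.4 Mb of later intron, and beyond 200 kb from the start genes without an open promoter held 1.88 per Mb. What part promoter state or gene length had in the densities of the lists was not tested.

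Later-intron regions were narrow and of moderate strength. The median width was 605 bp (25th to 75th percentile 432 to 830), against 626 in first introns, 627 between genes and 1162 at promoters. The authors' fold enrichment, the height of a peak over its local background, had a median of 5.47 in replicate 1 and 6.32 in replicate 2. First introns had 5.21 and 5.90, the space between genes 5.64 and 6.35, and promoters 9.22 and 10.4. Differences between later introns and the other non-promoter classes were thus smaller than the difference between libraries. The latter was common to all classes, with a median ratio of replicate 2 to replicate 1 of 1.10 to 1.12. Within replicates 1 and 2 the ratio of later-intron medians was 1.05 and 1.07 to first introns. It was 1.10 and 1.08 to exons, and 0.970 and 0.995 to the space between genes. Of the strongest 1000 regions of the series 72 were in later introns, 30 in first introns and 730 at promoters. These classes made up 22.7%, 10.6% and 27.5% of all shared regions. Of later-intron regions 3.87% were among the strongest 10% of shared regions. The fold exceeded 10 in both libraries for 903 later-intron regions (9.03%). That share is not given here for all shared regions. Their 75th percentiles of fold were 9.15 and 10.4, against 7.65 and 8.81 in later introns.

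**Figure D4:**
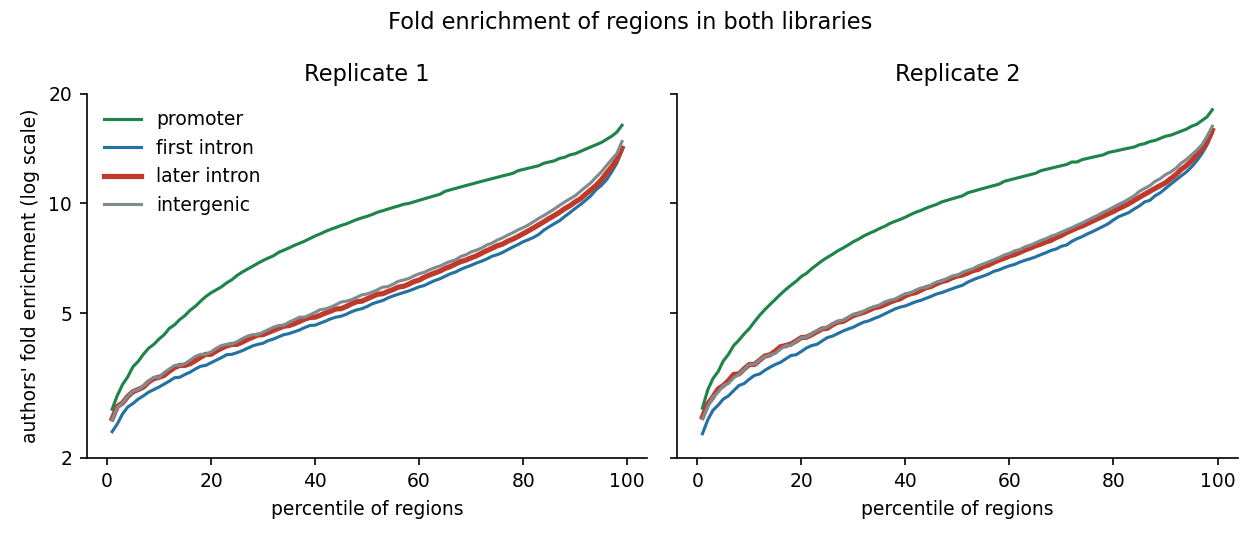
Authors' fold enrichment (log axis) at percentiles 1 to 99 of the regions of each class, in replicate 1 (left) and replicate 2 (right). The later-intron line runs between those of first introns and the space between genes or on the latter, and the promoter line lies above them, with medians of 9.22 and 10.4 against 5.47 and 6.32.

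The strongest later-intron region of both libraries was a 322 bp region in intron 10 of Cntnap5b, a contactin-associated gene (chr1:100180105-100180426), with folds of 41.6 and 44. It ranked first among all regions of the series in each library. Next were a 308 bp region in intron 2 of Gphn, the gephyrin gene, with 34.4 and 38.4, a 452 bp region in Jarid2, a partner of Polycomb complexes, with 23.7 and 26.1, and a 332 bp region in Camk1d, a calmodulin-dependent kinase gene, with 21 and 22.9. All 4 were narrower than the median. In the Gphn window 58.6% of the 32-base words occurred more than once on the 21 chromosomes used. In Jarid2 40.8% did and in Camk1d 45.6%, whereas in Cntnap5b none did. Only exact words on these chromosomes were counted, so a diverged copy, or one in unplaced sequence, would not be seen. The part of repeated sequence in the fold was not tested. Over all later-intron regions only 16 (0.160%) had over 50% of words repeated, and 0 of the 23 regions of the Th2 list did.

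Others of the 15 strongest lay in Tex14 (2 regions, in intron 2), Specc1l, Impg1, Atrnl1, Klra4, Gm8369, Oxr1, Dgkg and Ipcef1. Their folds were 15.4 to 20.1 in replicate 1 and 17.2 to 20.8 in replicate 2. The widest region, 3394 bp, lay in intron 3 of Tbc1d16, with folds of 8.44 and 7.01. The other wide ones lay in Gm47283 on chromosome Y, Clec16a, Hemk1, Fnbp1, Zmiz1, Ak5, Btn1a1, Sept9 and Lhx6, at 2350 to 3260 bp. Their strength was ordinary, at 4.27 to 10.5 in replicate 1 and 5.00 to 9.66 in replicate 2.

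For 2736 later-intron regions (27.4%) the nearest protein-coding start belonged to a gene other than the host. Besides the Rad50 regions near Il13, a region in Bco2 with folds of 14.4 and 17.5 lay 6.79 kb from the start of Il18, a cytokine gene. A region in Impg1, a gene of the retina, with 18.6 and 18.2, had the myosin gene Myo6 as the nearest start. Distance alone does not say which gene a region acts on. Starts of long non-coding RNAs lay within 1 kb of 141 regions (1.41%, 95% interval 1.20 to 1.66). Density also differed between chromosomes, from 13.3 per Mb on chromosome 8 to 23.4 on chromosome 11 among autosomes, and was 5.90 on chromosome X. The lower density on X was not particular to later introns. It was 11.1 per Mb against 22.3 on autosomes in first introns, 3.25 against 10.6 between genes and 154 against 230 at promoters.

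The AP-1 letters were the most frequent of the searched motifs in later-intron windows. AP-1 factors are dimers of Fos, Jun and Batf proteins that are induced when T cells are activated. The letters stood in 29.7% (28.8 to 30.6) of the 200-base windows at later-intron summits, against 5.54% of windows 1 kb away that overlapped no peak and 21.2% of all regions of the series. First introns had 28.6%, the space between genes 27.3% and promoters 3.81%. The share moved with strength: it was 42.2% in the strongest of 4 equal groups of later-intron regions, then 31.7%, 25.5% and 19.3%. Regions with the letters had median folds of 6.09 and 7.60, and those without had 5.26 and 5.87.

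Other motifs of T cell factors were less frequent. ETS letters (CNGGAAGT) stood in 8.27% of later-intron windows and 2.76% of windows 1 kb away, RUNX letters in 10.5% and 5.29%, and the STAT letters TTCNNNGAA in 12.5% and 6.04%. The STAT form with a gap of 4 bases, which Stat6 prefers, stood in 7.11% and 5.13%. GATA letters stood in 12.0% and 11.5%, so the short motif of the factor that defines Th2 cells was about as common outside the regions. NFAT letters (TGGAAAA) were less common in the regions than beside them, at 3.73% against 5.53%. Of later-intron windows 49.4% held at least 1 of the AP-1, ETS, RUNX and GATA letters, against 23.2% of windows 1 kb away. The GC box GGGCGG, typical of promoters, stood in 5.69% of later-intron windows and in 59.0% of promoter windows.

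The motif of CTCF, the factor that anchors chromatin loops, was more frequent in later than in first introns. It stood in 5.20% (4.78 to 5.65) of later-intron windows, 2.05% (1.68 to 2.5) of first-intron windows and 5.68% (5.33 to 6.05) of windows between genes. Windows 1 kb away held it in 0.123%. These intervals cover counting error only, and regions of 1 pair of libraries are not independent replicates. The motif was rarest in the strongest of the 4 groups, at 2.00%, and most common in the third, at 8.60%.

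Later-intron windows had a median GC content of 47.0%, against 45.0% in windows 1 kb away and 66.0% at promoters. Only 3.67% of them were repeats over most of their length, against 17.3% of windows 1 kb away. Regions just inside the 1 kb limit (800 to 1000 bp from a start, left out) numbered 42 with median folds of 4.82 and 5.24, and those just outside (1000 to 1200 bp, kept) numbered 37 with 4.44 and 5.07.

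The libraries shared fewer regions outside promoters than at them, in later introns as in the other classes. Of the later-intron regions of replicate 1 81.5% were found in replicate 2, and of those of replicate 2 64.6% were found in replicate 1, against 96.6% and 94.2% at promoters. First introns had 84.3% and 66.6%, and the space between genes 84.4% and 69.9%. A further 2274 regions were seen in replicate 1 alone and 5486 in replicate 2 alone, with median folds of 3.31 and 3.65. Where both libraries had the region, their folds had a Spearman correlation of 0.791 over regions, a description, and 69.0% were higher in replicate 2.

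The difference between libraries moved with the motif. The median ratio of the fold of replicate 2 to that of replicate 1 was 1.18 in later-intron regions with the AP-1 letters and 1.09 in those without. For GATA letters it was 1.05 with and 1.13 without, and for RUNX letters 1.05 and 1.13. When the regions were ordered by this ratio and divided into 10 groups of like size, AP-1 letters stood in 22.5% of the lowest group and 47.5% of the highest, and GATA letters in 18.3% and 5.80%. The same was seen in first introns, with 1.17 and 1.08 for AP-1 and 1.05 and 1.11 for GATA. Regions of replicate 2 alone held AP-1 letters in 30.6% (29.3 to 31.8) and those of replicate 1 alone in 13.9% (12.5 to 15.4).

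**Figure D5:**
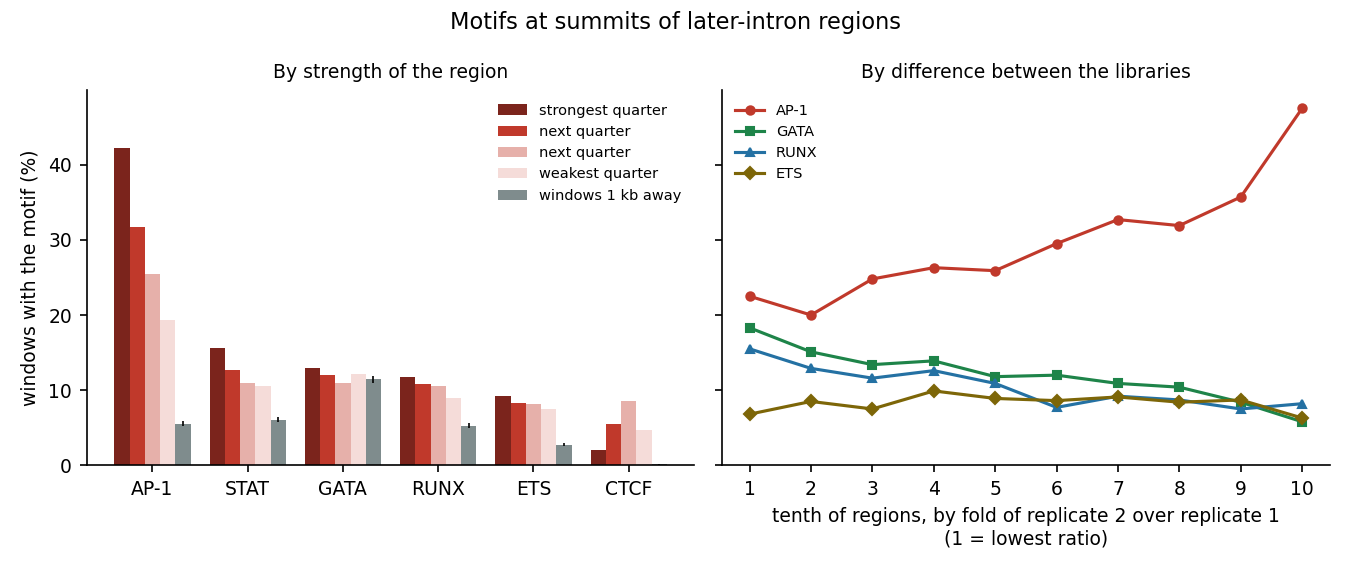
Share of 200-base windows at later-intron summits with each motif in percent, by strength of the region beside windows 1 kb away with 95% intervals (left), and in 10 groups of regions ordered by the fold of replicate 2 over that of replicate 1 (right). AP-1 falls from 42.2% to 19.3% with strength and rises from 22.5% to 47.5% across the ordered groups, while GATA falls from 18.3% to 5.80%.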

How the data were processed

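Peaks of both libraries were joined where they overlapped by at least 1 bp, and regions with a peak of each were kept. The authors called peaks per library on mm10, per the file headers. The aligner, the peak caller and any transposase shift were not given in the sources used here. Names of the deposited peaks carry words (ASTARR, insert, masked, dedup) and a time in hours that no source used here explains, and if they mean a cloned fragment library, fold would measure its inserts. The deposited fold enrichment of each peak is the authors' ratio and was used only to describe and rank regions within a library, taking the strongest peak of each library in a region. The deposited −log10 p-value was not used and the −log10 q-value only for a stricter threshold. The deposited score was not used.

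Genes came from the GENCODE M21 basic annotation on GRCm38. Every base of 21 chromosomes, N left out, was classed in the order promoter, exon, first intron, later intron and intergenic, so that each density divides regions by the bases that meet the same rule. Where later introns of several genes held a region (76 regions), it went to the gene with the nearest start. The 200 bp around the mean summit were searched for 23 motifs on both strands. Repeated sequence was measured as the share of 32-base words of a window that occur more than once on the 21 chromosomes, on either strand. Matches had to be exact. Intervals are 95% Wilson intervals and cover counting error only.

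The regions, the 13 gene lists and the motifs were chosen with earlier results of these data known. Named genes were the 20 with most regions (21 with ties), the 10 densest with at least 5 regions and 20 kb, those of the 15 strongest and 10 widest regions, every Th2 list gene, and the 3 with most regions in each other list. Some genes that this rule takes are left out here. Long genes without regions, genes with many regions and no open promoter, and regions near another gene's start were named after their values were seen. Scripts ran in Python 3.11.15 with numpy 2.4.6 and pandas 2.3.3 and were tested on simulated data. Alternatives were peaks overlapping by at least 50% of each, a −log10 q of at least 10, the summit for the centre, each library alone, another choice of transcript, exons of every transcript, 2.5 kb from starts, starts overlapped for an open promoter, 100 bp motif windows and the full annotation.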

Additional observations from a re-analysis of the deposited data

How the results depend on the processing

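There were 114 alternative values of 12 results, of which only the density ratios have a direction that could reverse. The ratio of later to first introns stayed below 1, at 0.682 to 0.729. That of genes with an open promoter to those without stayed above 1, at 3.35 to 3.99. Motif shares outside later introns were not recomputed. A count was taken as unchanged within 1.5 times its value, and any other value within 1 SD of the libraries, and by this measure 77 were unchanged and 37 moved. The SD rests on 2 libraries and differed widely between results. It was 0.00145 for the ratio to first introns and 0.0470 for the ETS share, against 3.56 for density and 2.79 for the AP-1 share. A small change could thus count as moved in 1 result and a larger one as unchanged in another. With a −log10 q of at least 10, the number of regions was 5360, density 8.34 per Mb, its ratio to first introns 0.682, median width 731 bp, median fold (mean of the libraries' medians) 7.86, genes 2997, and motif shares 34% for AP-1, 8.81% for ETS, 11.5% for RUNX and 4.10% for CTCF. With peaks overlapping by at least 50% of each, the ratio was 0.702, the fold 6.20, ETS 8.36% and CTCF 4.92%. With the transcript of largest span, the ratio was 0.729 and ETS 8.38%. With the summit for the centre, ETS was 8.06%. With 2.5 kb from starts the ratio was 0.723, and with the full annotation, an alternative chosen after seeing the data, 0.718. In windows of 100 bp the shares were 20.2% for AP-1, 5.11% for ETS, 5.68% for RUNX, 6.27% for GATA and 4.15% for CTCF. The cause of these changes was not tested, other than that a stricter threshold keeps fewer peaks and a shorter window holds fewer letters. From single libraries, the number of regions was 12373 to 15609, density 19.2 to 24.3, ratio to first introns 0.726 to 0.728, width 407 to 414 bp, fold 4.87 to 5.03, genes 5277 to 5939, density ratio of genes with an open promoter to those without 3.44 to 3.95 (here with promoters also called from that library alone), AP-1 26.6% to 30.5%, ETS 7.96% to 8.03%, RUNX 9.07% to 10.4%, GATA 11.3% to 12.8% and CTCF 4.96% to 5.32%.

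No paired analysis was possible because the study has 1 group. The read depth is unknown, so absence from a list was not read as closed chromatin. Of the later-intron regions 196 lay within 1 kb of a protein-coding start found only in the full annotation. Both libraries share a donor record, and open chromatin at a gene shows neither its expression nor which gene a region acts on.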

Other observations

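Runs of later-intron regions were also counted over all genes, without a comparison to other classes or to an expected number. When regions of 1 gene under 12.5 kb apart were stitched, 141 runs held 5 or more regions and 885 of the 9998 regions in all. After those of Atxn1, Clec16a and Inpp4b, the fullest were in Thada (14 regions in 60.9 kb), Prkca (12 in 79.6 kb), Bach2 (11 in 58.5 kb), Glb1 (11 in 55.1 kb) and Ptprc (10 in 43.5 kb). Chd7, a chromatin remodeller gene, held 9 in 45.8 kb, and Ubac2, a gene of the endoplasmic reticulum, held 9 in 33.3 kb. In the run of Glb1 the highest folds were 11 and 13.9, and in that of Bach2 7.55 and 7.70, so the strongest later-intron regions of Bach2 stood outside its fullest run.

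Composite motifs of AP-1 with IRF, which Batf and Irf4 bind together in T cells, were rare but more frequent in regions than beside them. They contain the AP-1 letters and overlap that search. The form with a gap of 4 bases stood in 1.00% of later-intron windows and 0.0911% of windows 1 kb away, and the adjoining form in 1.06% and 0.0536%. With the gapped form the fold of replicate 2 was 1.12 times that of replicate 1 at the median, the same as without it. For the IRF repeat without regard to AP-1 these ratios were 1.05 and 1.12.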
